A study of Capra hircus with 29 samples.

Results

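The genes described here encode the nuclear part of the oxidative phosphorylation system in goat oocytes. They are the table rows whose gene symbol begins with NDUF and a further letter (complex I, NADH dehydrogenase), is SDHA, SDHB, SDHC or SDHD (complex II, succinate dehydrogenase), begins with UQCR (complex III, cytochrome bc1), begins with COX and a digit from 4 to 8 (complex IV, cytochrome c oxidase), or begins with ATP5 (complex V, ATP synthase). By this rule 115 of the 21343 rows were members. They carried 79 symbols, of which 22 stood on more than 1 row, so that the rows of 1 symbol may be copies that share reads and their separate values are uncertain. Complex I held 50 rows of subunits and 11 rows of NDUFAF assembly factors, complex II 5 rows, complex III 4, complex IV 13 and complex V 32. NDUFA4, named for complex I, is counted here with complex IV, of which its product is now known to be a subunit. The rule used symbols alone and no expression value. It therefore missed the 13 subunits encoded by mitochondrial DNA and subunits that the annotation leaves under a LOC number. Nuclear subunits with other symbols were missed too, such as CYC1 (cytochrome c1 of complex III) and USMG5 (ATP synthase). Those that were looked for are given apart below.

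In oxidative phosphorylation, complexes I and II pass electrons from NADH and succinate to ubiquinone. Complex III passes them on to cytochrome c, and complex IV to oxygen. Complexes I, III and IV pump protons across the inner mitochondrial membrane, and ATP synthase uses the gradient to make ATP. Every subunit of complex II is encoded in the nucleus, whereas the other complexes also contain subunits made from mitochondrial DNA. Oocytes hold many mitochondria and rely mainly on this pathway for ATP, with pyruvate supplied by the surrounding granulosa cells.

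RNA-seq was carried out on oocytes of Ji'ning grey goats from a high fertility (H) and a low fertility (L) population, taken from large (L), medium (M) and small (S) follicles, and the final letter O stands for oocyte. The sample labels set the populations at litters of more than 3 and of fewer than 2 kids, while the methods of the study give limits that include 3 and 2 kids. The 6 groups were HLO, LLO, HMO, LMO and LSO with 5 samples each and HSO with 4 samples (replicates 1, 3, 4 and 5), 29 samples in all. The labels name no agent, genotype or age. Each sample held a few oocytes, drawn from oocytes pooled by follicle size (the methods state the pooling for the high fertility population), and the goats behind a sample are not recorded. The p-values therefore measure only the spread between samples, which may be technical. Values are FPKM, fragment counts scaled to the length of a transcript and to the mapped fragments of its library. Levels of different genes can thus be set side by side per length. How far this holds between short and long transcripts was not tested. The read depth cannot be read from FPKM, and no counting error is given. Within a group, values are listed in the order of the replicate numbers.

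Of 11 oocyte markers found in the table, BMP15, DDX4, GDF9, KIT, ZAR1, ZP2, ZP3 and ZP4 exceeded 0.5 FPKM in all 29 samples. FIGLA exceeded it in 28 samples, the higher DAZL row in 21 (the other DAZL row was at 0 throughout) and NLRP5 in 5 (mean 0.303 FPKM). The summed level of the 11 oocyte markers was 433 to 9107 FPKM. Of 10 granulosa cell markers found in the table, AMH, HSD17B1 and JUNB were listed at 0 in all samples. CYP19A1, FSHR and LHCGR never exceeded 0.5 FPKM. VCAN exceeded it in all 29 samples (mean 3.97 FPKM), INHBA in 10, FST in 5 and INHA in 1. The summed level of the 10 granulosa cell markers was 2.35 to 13.5 FPKM. The summed level of 4 theca and stroma markers (ACTA2, COL1A1, DCN and STAR) was 8.69 to 60.2 FPKM. STAR (mean 18.8 FPKM) and DCN (7.95 FPKM) exceeded 0.5 FPKM in all 29 samples, ACTA2 in 28 and COL1A1 in 0. The summed level of 5 leukocyte markers was 0.0640 to 0.938 FPKM and that of 1 red cell marker 0 to 0.464 FPKM. Between 6646 (LLO-2) and 8689 (LLO-4) rows exceeded 0.5 FPKM in a sample. The samples LLO-2, LLO-5 and LMO-2 had the lowest median Spearman correlation with the other samples (0.756, 0.760 and 0.774, against 0.789 to 0.904 in the rest), and the counts of members in comparisons that include them are given with and without them.

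Of the 115 member rows, 87 rows with 76 symbols exceeded 0.5 FPKM in at least 4 of the 29 samples, and 67 exceeded it in all 29. The other 28 rows did not pass, and 18 of them were listed at 0 throughout. Most were further rows of symbols that had a passing row elsewhere (ATP5A1, ATP5G2, ATP5G3, ATP5H, ATP5J, ATP5L, NDUFA1, NDUFA4, NDUFA5, NDUFAF2, NDUFAF4, NDUFB1, NDUFB11, NDUFC1, NDUFS8, NDUFV2 and SDHB). COX6A2 and COX6B2, isoforms known from striated muscle and testis, and the assembly factor NDUFAF6 had no passing row. By class, 40 of 50 rows passed for complex I subunits, 7 of 11 for complex I assembly, 4 of 5 for complex II, 4 of 4 for complex III, 8 of 13 for complex IV and 24 of 32 for complex V.

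Complex I subunit transcripts spread from 0.334 FPKM (NDUFA10) to 2335 FPKM (NDUFA6), and the core subunits of the enzyme lay in the lower part. NDUFA6, a small supernumerary subunit of the LYR family, stood at 2335 ± 1080.0 FPKM (mean ± SD, n = 29) and was above 99.9% of all rows. NDUFC1 stood at 1713 ± 826 FPKM, NDUFA1 at 1329.6 ± 569.7 FPKM, NDUFA7 at 1038 ± 483 FPKM and NDUFB4 at 1029 ± 464 FPKM, all of them supernumerary subunits that carry no redox centre. The core subunits, among which are those that bind the FMN and the iron-sulphur clusters, were far lower. NDUFS1 stood at 0.711 ± 0.708 FPKM, NDUFV1 at 0.968 ± 0.917 FPKM and NDUFS8 at 2.05 ± 2.95 FPKM. Over 6 nuclear core subunits (NDUFS1, NDUFS3, NDUFS7, NDUFS8, NDUFV1 and NDUFV2) the median of the mean levels was 7.44 FPKM (range 0.711 to 69.6), and none exceeded 100 FPKM. Over 30 supernumerary subunits it was 239.9 FPKM (range 0.334 to 2335), and 23 exceeded 100 FPKM. Low members stood among these too, with NDUFA10 at 0.334 ± 0.357 FPKM and NDUFS6 at 0.469 ± 0.486 FPKM. This grouping into core and supernumerary subunits was chosen after the values were seen, and it is a description with no test. The part that transcript length had in these levels was not tested.

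Of the complex I assembly factors, which build the enzyme and are not part of it, NDUFAF4 at 119.6 ± 55.4 FPKM and NDUFAF2 at 108 ± 33.7 FPKM were the highest. NDUFAF1 stood at 37.0 ± 22.9 FPKM and NDUFAF5, a hydroxylase that modifies NDUFS7, at 25.6 ± 15.7 FPKM. NDUFAF8 was at 0.821 ± 1.92 FPKM, and only 7 samples had it above 0.5 FPKM.

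The 4 subunits of complex II were not at like levels. SDHC and SDHD, the membrane anchors that bind ubiquinone, stood at 81.2 ± 76.3 and 73.9 ± 55.6 FPKM. SDHB, the iron-sulphur subunit, stood at 11.1 ± 6.49 FPKM and SDHA, the flavoprotein that oxidises succinate, at 2.43 ± 1.66 FPKM. SDHA lay between 0.544 to 9.57 FPKM and SDHC between 1.86 to 237 FPKM over the 29 samples. The second SDHB row was at 0 in 29 of 29 samples. In complex III, UQCRQ, a small subunit, stood at 1050.1 ± 554 FPKM. The core proteins UQCRC2 and UQCRC1 stood at 25.3 ± 22.03 and 4.08 ± 1.99 FPKM, and UQCRFS1, the Rieske iron-sulphur protein that hands electrons to cytochrome c1, at 8.29 ± 3.73 FPKM.

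Several complex IV subunits exist in forms that differ between tissues. COX8A, the ubiquitous form of subunit 8, stood at 863 ± 341 FPKM, and COX7A1, known as the heart and skeletal muscle form of subunit 7A, at 546 ± 339 FPKM. NDUFA4 stood at 649 ± 263 FPKM. COX7A1 was above 0.5 FPKM in all 29 samples (range 7.28 to 1292 FPKM). COX7A2L, a related protein that helps join complexes III and IV, stood at 206 ± 134 FPKM. COX7B2, known as a testis form of subunit 7B, stood at 159.5 ± 84.8 FPKM, COX5B at 133 ± 52.2 FPKM and COX6B1 at 107 ± 36.3 FPKM. COX6A2 had a mean of 0 FPKM and COX6B2 of 0.156 FPKM, both under the limit of 0.5 FPKM. The symbols COX4I1, COX4I2, COX5A, COX6A1, COX6C, COX7A2, COX7B, COX7C, COX8B and COX8C had no row under those names.

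For ATP synthase, ATP5J (coupling factor 6 of the peripheral stalk) had the highest mean of all members at 2409 ± 1403 FPKM. It reached 7640 FPKM in LLO-2, and by the median it lay below NDUFA6 (1668 against 1913 FPKM). ATP5IF1, the inhibitor that blocks ATP hydrolysis by the enzyme, stood at 1099 ± 666 FPKM. ATP5G1, ATP5G2 and ATP5G3 encode the same mature c subunit of the membrane ring. ATP5G3 stood at 576 ± 217 FPKM, ATP5G1 at 543 ± 239.8 FPKM and the highest ATP5G2 row at 63.0 ± 31.9 FPKM, so that the first pair did not differ beyond their spread and ATP5G2 lay below both. The catalytic head was lower again, with the alpha subunit ATP5A1 at 22.9 ± 11.6 FPKM and the beta subunit ATP5F1B at 3.39 ± 1.79 FPKM. In the central stalk, the delta subunit ATP5F1D stood at 0.511 ± 0.505 FPKM. The gamma subunit ATP5F1C, the rotating shaft, was at 190.5 ± 129 FPKM.

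**Figure D1:**
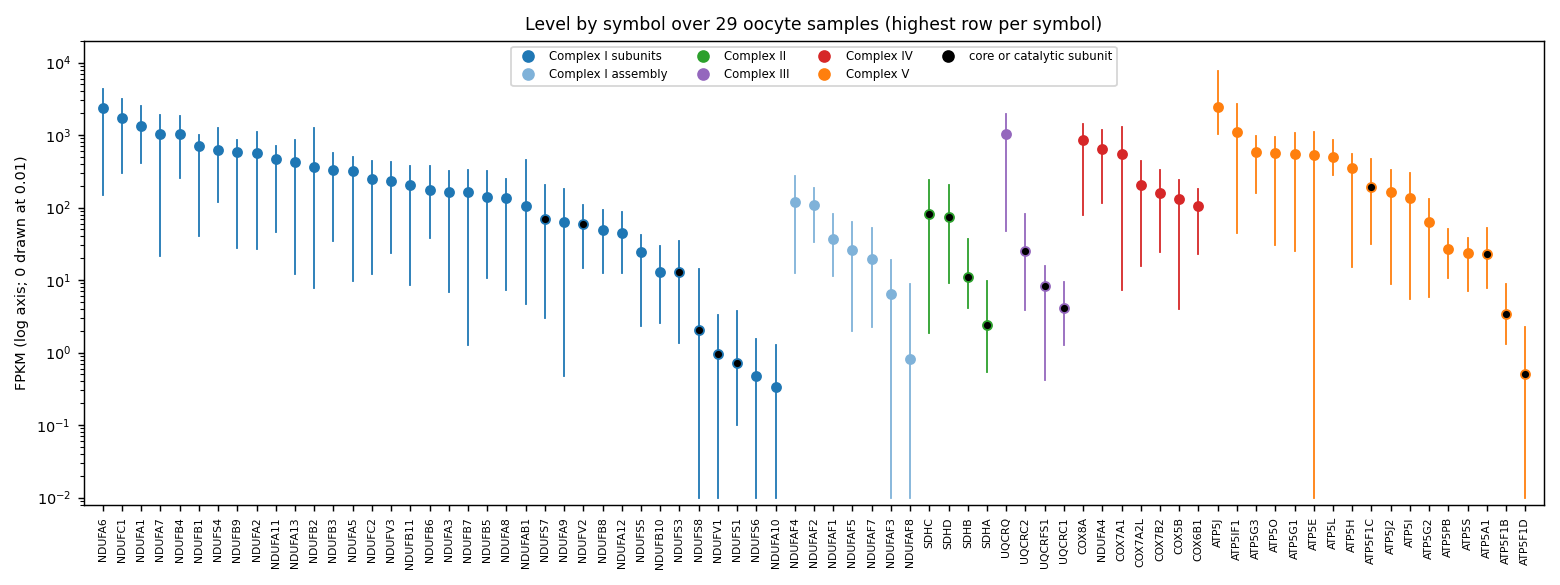
Mean FPKM over 29 samples of the highest row of symbols that passed the limit, ordered by complex, on a log10 axis with 0 drawn at 0.01 FPKM; lines run from the lowest to the highest sample and black centres mark core or catalytic subunits. ATP5J (2409 FPKM) and NDUFA6 (2335 FPKM) are highest, and most black centres of complexes I and III lie in the lower part of their complex.

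Rows under LOC numbers were searched for descriptions as a subunit of the cytochrome b-c1 complex (III), cytochrome c oxidase (IV) or ATP synthase (V). The search gave 17 further rows. Complexes I and II, other wordings and rows with other symbols were outside it. Whether more subunits were missed there was not tested. The 17 rows were looked for after the table had been seen and are not members, and 15 of them passed the limit. Rows described as cytochrome c oxidase subunit 7C reached 6038 ± 3075 FPKM, above every member, and those for cytochrome b-c1 subunit 6 and cytochrome c oxidase subunit 6A1 stood at 1736 ± 498 and 1038 ± 382 FPKM. The higher row for subunit 7A2, the form used by most tissues, stood at 612 ± 342 FPKM, near COX7A1, and the lower row at 64.9 ± 32.7 FPKM. Subunit 4 isoform 1 stood at 179 ± 111 FPKM, and subunit 4 isoform 2, the hypoxia and lung form, had a mean of 0.0237 FPKM and did not pass. The symbol rule thus left out highly expressed subunits of complex IV, and sums over the members are sums over the named genes.

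Summed over all member rows, the level was 30343 ± 5366 FPKM in HMO, 27983 ± 6985 FPKM in HLO, 27031 ± 5256 FPKM in LSO, 26855 ± 4017 FPKM in HSO, 22794 ± 6008 FPKM in LMO and 21207 ± 8817 FPKM in LLO (mean ± SD, n = 5, and n = 4 for HSO). Neighbours in this order differed by less than the larger of their SDs, and the ranges of all groups overlapped. The lowest sample was LLO-5 at 9592 FPKM and the highest HMO-3 at 36661 FPKM. As a share of a sample's total FPKM, the members took 2.48% (LLO-5) to 8.31% (HLO-4). With the row of highest mean for each symbol only, the sum ranged from 8926 to 35482 FPKM.

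The complex I sum was 11493, 19639.9, 17088, 17335 and 9532 FPKM in HLO and 11976, 3206, 19007, 12963 and 2559.6 FPKM in LLO. It was 14588, 13987, 20218, 18748 and 12828 FPKM in HMO and 14041, 8650.3, 17888, 10086 and 11282 FPKM in LMO. It was 13243, 19203, 14915 and 10807 FPKM in HSO and 14360.5, 16310.1, 19139.5, 12591 and 10871 FPKM in LSO. LLO-2 and LLO-5 lay far below every other sample, LMO-2 was the next lowest, and the other LLO samples lay among those of HLO. The complex IV sum was likewise lowest in LMO-2 (757 FPKM), LLO-2 (768 FPKM) and LLO-5 (1091 FPKM), against 2269 FPKM or more in the other 26 samples. The total FPKM over all rows of the table was lowest in LMO-2 as well, at 222697, against 347806 to 490048 elsewhere. Low sums in LMO-2 thus stand beside a low total. The members took 6.48% of the total in LMO-2, against 4.46% in LLO-2 and 2.48% in LLO-5. The complex V sum did not follow this order. It was 11140.0 FPKM in LLO-2, among the highest of all samples, and ATP5J rows alone made up 60.5% of the members' summed FPKM there. In LLO-5 they made up 35.1%, and in the other 27 samples 6.21% to 15.4%.

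**Figure D2:**
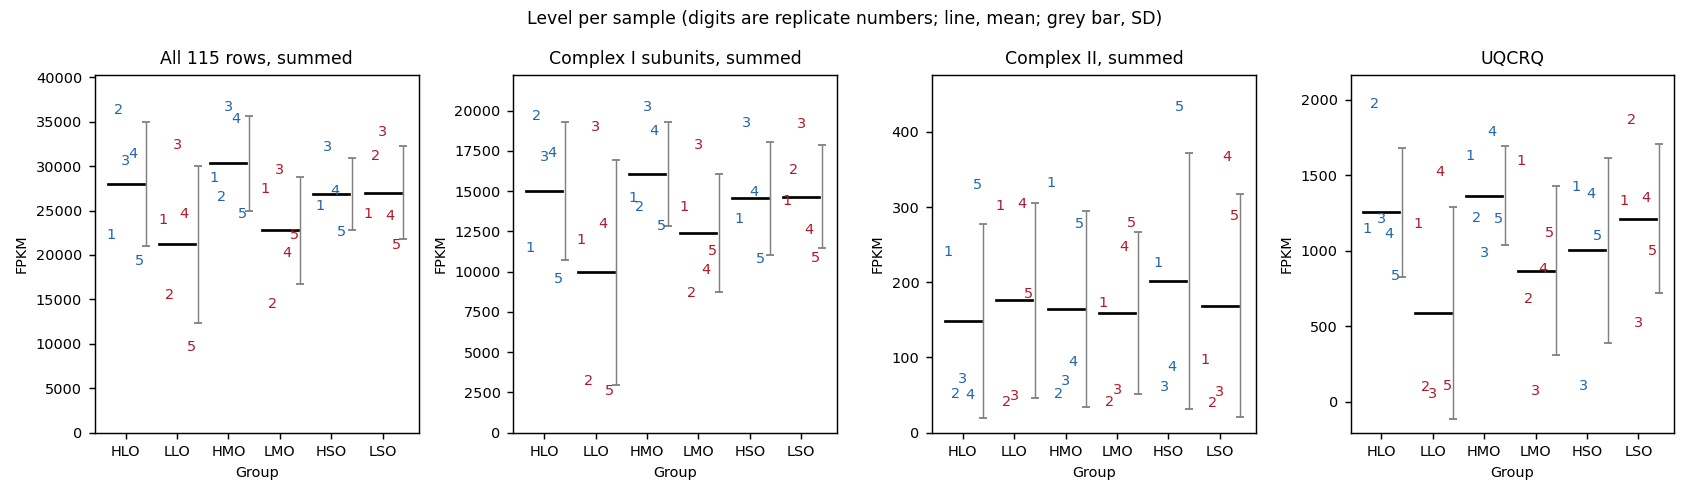
FPKM of each sample by group, in 4 panels for the sum of all 115 rows, the complex I subunits, complex II and UQCRQ; digits are replicate numbers, black lines means and grey bars SD. LLO-2 and LLO-5 stand lowest in complex I (3206 and 2560 FPKM), complex II spreads widely within every group, and UQCRQ is low in LLO-2, LLO-3, LLO-5, LMO-3 and HSO-3.

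Complex II varied in another way. Its sum was 240.2, 51.5, 71.0, 50.6 and 329.8 FPKM in HLO and 302, 40.8, 48.4, 304 and 184 FPKM in LLO. It was 331, 50.7, 68.8, 93.5 and 277 FPKM in HMO and 172, 41.1, 57.0, 247 and 279 FPKM in LMO. It was 226, 60.2, 87.2 and 433 FPKM in HSO and 96.5, 39.7, 53.5, 366 and 288 FPKM in LSO. Each of the 6 groups held samples at both ends, and the groups overlapped throughout. The ends went with the replicate number. Every replicate 2 and 3 lay at 39.7 to 71.0 FPKM, every replicate 1 at 96.5 to 331 FPKM and every replicate 5 at 184 to 433 FPKM. Replicates 4 ran from 50.6 to 366 FPKM. The labels do not say what samples with the same number share. The main tests below do not take the number into account, and values with it as a block are given at the end. The differences between samples also moved with the number of rows detected. In the sample with the most rows above 0.5 FPKM of each group, SDHC was higher than in the sample with the fewest in 6 of 6 groups, by 7.05 to 26.9 times. SDHD was higher by 3.20 to 8.59 times, UQCRC2 by 5.48 to 18.7 times and ATP5F1C by 3.10 to 6.64 times, each in 6 of 6 groups. NDUFA9, a complex I subunit close to the ubiquinone site, was higher in 6 of 6 groups by 3.60 to 262 times. ATP5J went the other way and was lower in 6 of 6 groups, with ratios of 0.133 to 0.467, as were ATP5L, a membrane subunit of ATP synthase (0.441 to 0.888), and NDUFAF5 (0.254 to 0.516). SDHA was higher in 4 groups and lower in 2, and SDHB higher in 3 and lower in 3. In HSO, the sample with the most rows detected was HSO-5, with SDHC at 223 FPKM and ATP5J at 1201 FPKM, and the one with the fewest was HSO-3, at 11.3 and 3877 FPKM. The genes named here were chosen after their values were seen, and the part of the number of rows detected in the group differences was not tested. In bulk samples, fewer cells and less RNA per cell cannot be told apart.

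Over the 29 samples, Spearman's rho between a row's FPKM and the number of rows detected was above 0.5 in 27 of 87 member rows (31.0%) and below -0.5 in 15 (17.2%). Among all 9692 rows that passed the limit the shares were 44.7% and 3.13%. These are descriptions, because both measures come from the same libraries. The highest member was NDUFA9 (0.90) and the lowest ATP5J (-0.87).

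LLO-2 and LLO-5 were the lowest pair of the 29 samples in 39 of the 87 member rows (44.8%), against 1348 of all 9692 rows (13.9%). These counts include ties at 0 with other samples, as in the NDUFC1 row ENSCHIG00000002910 and in ATP5F1D. Both lay below every other sample in 37 member rows (42.5%), against 1085 of all rows (11.2%). In 37 member rows (42.5%) both lay under 20% of the median of the other samples, against 11.6% of all rows. By class and with ties, both were lowest in 23 of 40 complex I subunit rows, 1 of 7 assembly factor rows, 0 of 4 complex II rows, 1 of 4 complex III rows, 3 of 8 complex IV rows and 11 of 24 ATP synthase rows. NDUFA7 stood at 21.3 and 25.6 FPKM in LLO-2 and LLO-5, against 487 to 1882 FPKM elsewhere. ATP5H, a stalk subunit of ATP synthase, stood at 15.0 and 19.7 FPKM, against 196 to 541 FPKM. COX5B stood at 4.04 and 5.58 FPKM, against 51.5 to 237 FPKM. The c subunit genes parted here, since ATP5G1 was at 25.1 and 27.1 FPKM in these samples (elsewhere 154 to 1062 FPKM) and ATP5G3 at 496 and 939.6 FPKM (elsewhere 161 to 975 FPKM). ATP5J at 7639.7 and 2728 FPKM, NDUFV3 at 399 and 431 FPKM and NDUFAF4 at 171 and 275 FPKM were not low. Several LOC-numbered subunits were low in both samples too, such as cytochrome c oxidase subunit 4 isoform 1 at 7.31 and 7.69 FPKM. The samples were singled out after their values were seen.

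**Figure D3:**
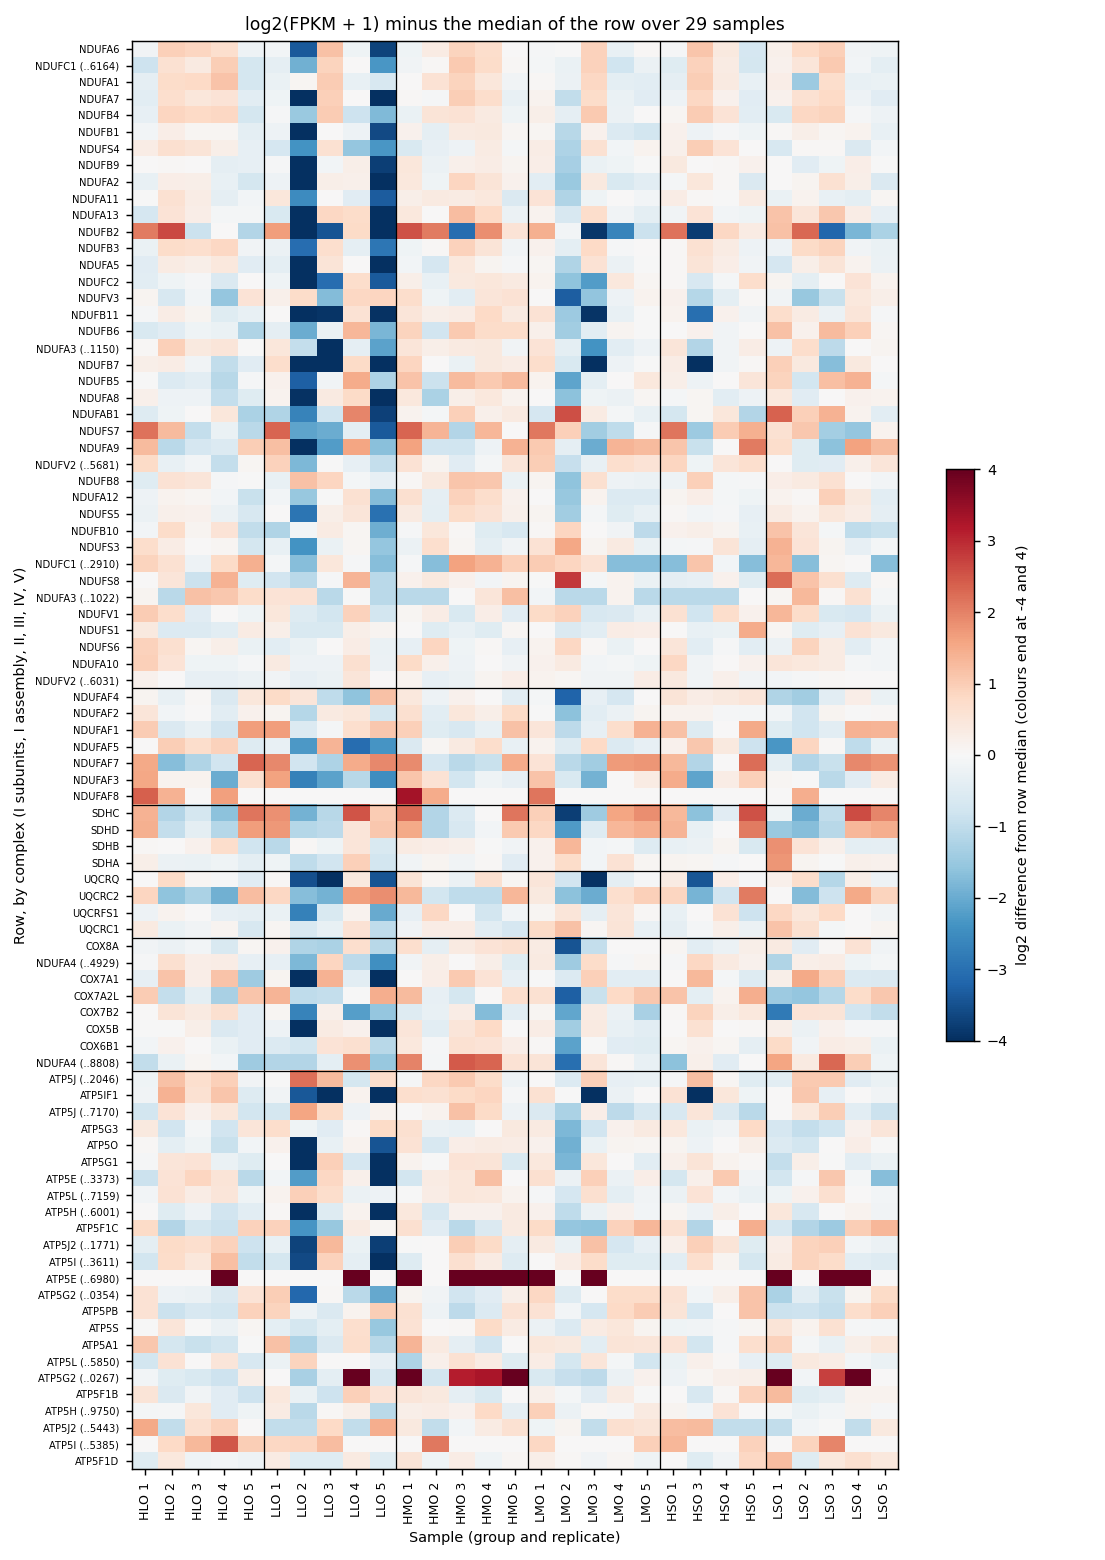
Level of member rows that passed the limit in each sample, as log2(FPKM + 1) minus the median of that row over the 29 samples, with samples in columns by group, rows by complex, red above and blue below the median and colours ending at 4 either way. The columns of LLO-2 and LLO-5 are blue over much of complex I and ATP synthase, and in 37 of 87 rows both lie below every other sample.

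A different set of samples shared very low levels of 5 members. UQCRQ stood at 48.0 to 106 FPKM in LLO-2, LLO-3, LLO-5, LMO-3 and HSO-3 and at 519 to 1970 FPKM in the other 24 samples. ATP5IF1 stood at 44.0 to 94.2 against 695 to 2656 FPKM, and NDUFB7 at 1.26 to 5.05 against 52.8 to 332 FPKM. NDUFB11 stood at 8.57 to 25.7 against 78.0 to 371 FPKM, and NDUFB2 at 7.83 to 17.5 against 21.2 to 1269 FPKM. The NDUFB genes encode subunits of the distal membrane arm of complex I. In each of these 5 rows, every one of the 5 samples lay below all 24 others, as it did in 66 of all 9692 rows (0.681%, against 5.75% of the members). The 5 samples came from 3 groups (LLO, LMO and HSO), and LLO-2, LLO-3, LMO-3 and HSO-3 were the 4 with the fewest rows detected. In the complex I sum, LLO-3, LMO-3 and HSO-3 were not low. The samples were chosen on UQCRQ after its values were seen, so that this is a description.

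The first comparison asked how oocytes of large follicles differ between the fertility populations. It was made by limma's moderated test on log2(FPKM + 1) over the 8328 rows for which 4 or more of the 10 samples passed 0.5 FPKM, and rows were counted at an unadjusted p under 0.05 and a log2 difference beyond 1. Of 82 member rows tested, 9 were higher in HLO (11.0%, background 1.78%) and 0 lower (background 0.516%). No member passed a Benjamini-Hochberg adjusted p of 0.05 (smallest adjusted p = 0.83), nor did any of the 8328 rows. By an unadjusted p under 0.05 alone 9 members passed too (background 4.14%). With the row of highest mean for each symbol, 8 of 73 were higher. The members' median log2 difference was 0.67, against -0.091 over all rows tested, and 62 of 82 (75.6%) lay above 0, against 42.4% of all rows. By class the medians were 1.02 for complex I subunits, 0.73 for complex IV, 0.54 for complex III, 0.41 for complex V, 0.097 for assembly factors and 0.049 for complex II.

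ATP5IF1, the inhibitor of ATP synthase, stood at 913, 2656, 1537, 2148 and 695 FPKM in HLO and 914, 94.2, 44.0, 1107 and 58.4 FPKM in LLO, a log2 difference of 2.88 ± 0.90 (SE). LLO-2, LLO-3 and LLO-5 were low, and LLO-1 and LLO-4 lay within the HLO range. UQCRQ stood at 1147, 1970.2, 1210.2, 1111 and 831 FPKM in HLO and 1177, 99.4, 48.0, 1519 and 105 FPKM in LLO, a log2 difference of 2.28 ± 0.88 (SE). NDUFB11 stood at 209, 263, 231, 152 and 174 FPKM in HLO and 215, 8.57, 13.1, 323 and 12.8 FPKM in LLO, a log2 difference of 2.27 ± 0.94 (SE). For both, the same LLO samples were the low ones. NDUFS4, an accessory subunit needed for complex I stability, stood at 781, 1001, 917, 758 and 507 FPKM in HLO and 397, 119.9, 975, 219.5 and 127 FPKM in LLO, a log2 difference of 1.54 ± 0.60 (SE). The NDUFC1 row ENSCHIG00000002910, a lesser row (one with a lower mean FPKM than another row of its symbol), stood at 4.97, 3.92, 1.79, 4.48 and 7.56 FPKM in HLO and 2.07, 0, 3.44, 2.12 and 0 FPKM in LLO, a log2 difference of 1.30 ± 0.48 (SE). For these NDUFS4 and NDUFC1 rows LLO-2 and LLO-5 were the lowest samples. The others counted were NDUFB7, NDUFA3, COX7B2 and NDUFAF5, with log2 differences from 1.44 (COX7B2) to 2.71 (NDUFB7). The adjusted p was 0.828 for each of the 9. In none of the 82 rows did all HLO samples lie above all LLO samples (background 0.276%) or below them (0.156%).

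Without LLO-2 and LLO-5 together, the median over the 82 members was -0.041, 0 were counted (background 0.515%) and 37 lay above 0. The median over all rows was then -0.15, so that the members lay 0.11 above it, against 0.76 above it with all samples. ATP5IF1 then differed by 1.98, UQCRQ by 1.44, NDUFB11 by 1.03, NDUFS4 by 0.81 and NDUFC1 by 0.58 on the log2 scale. The count of 9 fell to 1 without LLO-5, to 2 without LLO-2 and to 4 without HLO-2 or HLO-3, and rose to 16 without LLO-4 and 18 without LLO-1 or LLO-3. The background was then 0.902%, 0.900%, 1.18%, 1.24%, 3.35%, 4.38% and 3.92% in that order of samples. With array weights, which give each sample its own weight, 25 were counted (30.5%, background 3.69%), and by an exact Wilcoxon rank sum test 0 (background 0.600%). This pair of samples was left out together after their values were seen.

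**Figure D4:**
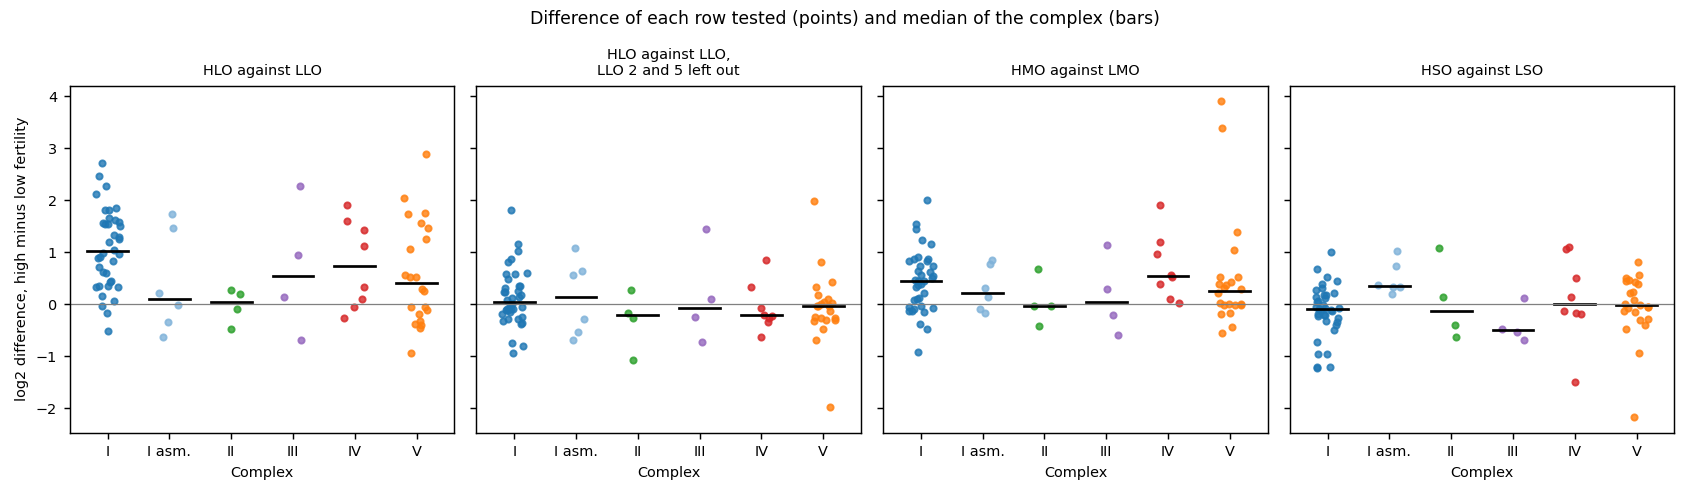
Log2 difference, high minus low fertility, of each member row on the log2(FPKM + 1) scale by complex, in 4 panels for large follicles, large follicles without LLO-2 and LLO-5, medium and small follicles; points are rows and bars the median of the complex. The complex I median is 1.02 in the first panel and 0.041 in the panel without LLO-2 and LLO-5.

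In medium follicles, 4 of 81 member rows were higher in HMO than in LMO by the same limits (4.94%, background 2.85% of 8390 rows) and 0 lower (0.548%), and no member passed the adjusted p (smallest 0.157, background 0.0715%), with 8 members at an unadjusted p under 0.05 (background 8.67%). With array weights, 11 members passed an adjusted p of 0.05, as did 12.1% of all rows. In the unweighted fit the members' median log2 difference was 0.37, against -0.065 over all rows, and 57 of 81 lay above 0 (70.4%, against 43.5% of all rows). All 4 were lesser rows of repeated symbols, and 0 of the 72 rows of highest mean per symbol were counted. Without LMO-2 the median was 0.18, against -0.12 over all rows, and 2 rows were counted (2.47%, background 2.25%). Without other samples the count ran to 2 (HMO-4, background 1.99%), 7 (LMO-3, 2.75%), 9 (HMO-2, 4.11%) and 12 (LMO-1, 3.90%). No member separated the groups (background 0.846% and 0.858%). The subunits with the smallest p outside those rows were NDUFA2, at 798, 528, 1091, 859 and 666 FPKM in HMO and 444, 214, 781, 388 and 447 FPKM in LMO, and COX6B1, at 141, 102, 161, 153 and 126 and 109, 23.2, 105, 76.5 and 74.8 FPKM. Their log2 differences were 0.87 ± 0.36 (SE), adjusted p = 0.542 and 0.97 ± 0.42 (SE), adjusted p = 0.563, under the limit of 1. LMO-2 was the lowest sample in both.

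Of the 4 counted rows, the ATP5G2 row ENSCHIG00000010267 stood at 49.8, 0.482, 20.8, 22.4 and 42.9 FPKM in HMO and 0.594, 0.285, 0.172, 1.07 and 1.77 FPKM in LMO, a log2 difference of 3.38 ± 0.79 (SE), adjusted p = 0.157. The ATP5E row ENSCHIG00000006980 (epsilon subunit of the ATP synthase stalk) stood at 57.3, 0, 705, 450.1 and 79.0 FPKM in HMO and 46.1, 0, 41.97, 0 and 0 FPKM in LMO, a log2 difference of 3.90 ± 1.73 (SE), adjusted p = 0.563. The NDUFA4 row ENSCHIG00000018808, of a complex IV gene, stood at 31.1, 6.64, 42.6, 39.0 and 10.99 FPKM in HMO and 10.6, 0, 10.3, 7.25 and 5.49 FPKM in LMO, a log2 difference of 1.90 ± 0.70 (SE), adjusted p = 0.449. In all 3, HMO-1, HMO-3, HMO-4 and HMO-5 lay above every LMO sample, HMO-5 only just so for NDUFA4, and HMO-2 lay within the LMO range. The ATP5J row ENSCHIG00000007170 stood at 592, 646, 1316, 1002 and 514 FPKM in HMO and 389, 243, 704, 285 and 372 FPKM in LMO, a log2 difference of 1.04 ± 0.38 (SE), adjusted p = 0.433. That row overlapped between the groups.

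The first 3 of these rows were high in the same samples across the series, and HSD17B2, a steroid dehydrogenase, was high in those samples as well. HSD17B2 lay at 7.44 to 41.7 FPKM in 8 samples (HMO-1, HMO-3, HMO-4, HMO-5, LLO-4, LSO-1, LSO-3 and LSO-4) and at 0.00931 to 0.143 FPKM in the other 21. In those 8 samples the ATP5G2 row ENSCHIG00000010267 lay at 15.1 to 90.1 FPKM, against 0 to 1.90 FPKM in the other 21. The ATP5E row ENSCHIG00000006980 lay at 57.3 to 949.8 FPKM there and at 0 to 104 FPKM elsewhere, with 104 FPKM in HLO-4, 46.1 in LMO-1, 41.97 in LMO-3 and 0 in the rest. The NDUFA4 row ENSCHIG00000018808 lay at 11.0 to 42.6 FPKM against 0 to 10.6 FPKM. The highest rows of the same symbols did not share this split. ATP5G2 in its highest row lay at 34.2 to 70.7 FPKM in HMO and 41.4 to 106 FPKM in LMO, and ATP5E in its highest row at 289 to 1112 and 407 to 928 FPKM. The samples were picked by HSD17B2 after its values were seen. Whether such rows are transcribed copies or take reads from their parent genes was not tested.

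**Figure D5:**
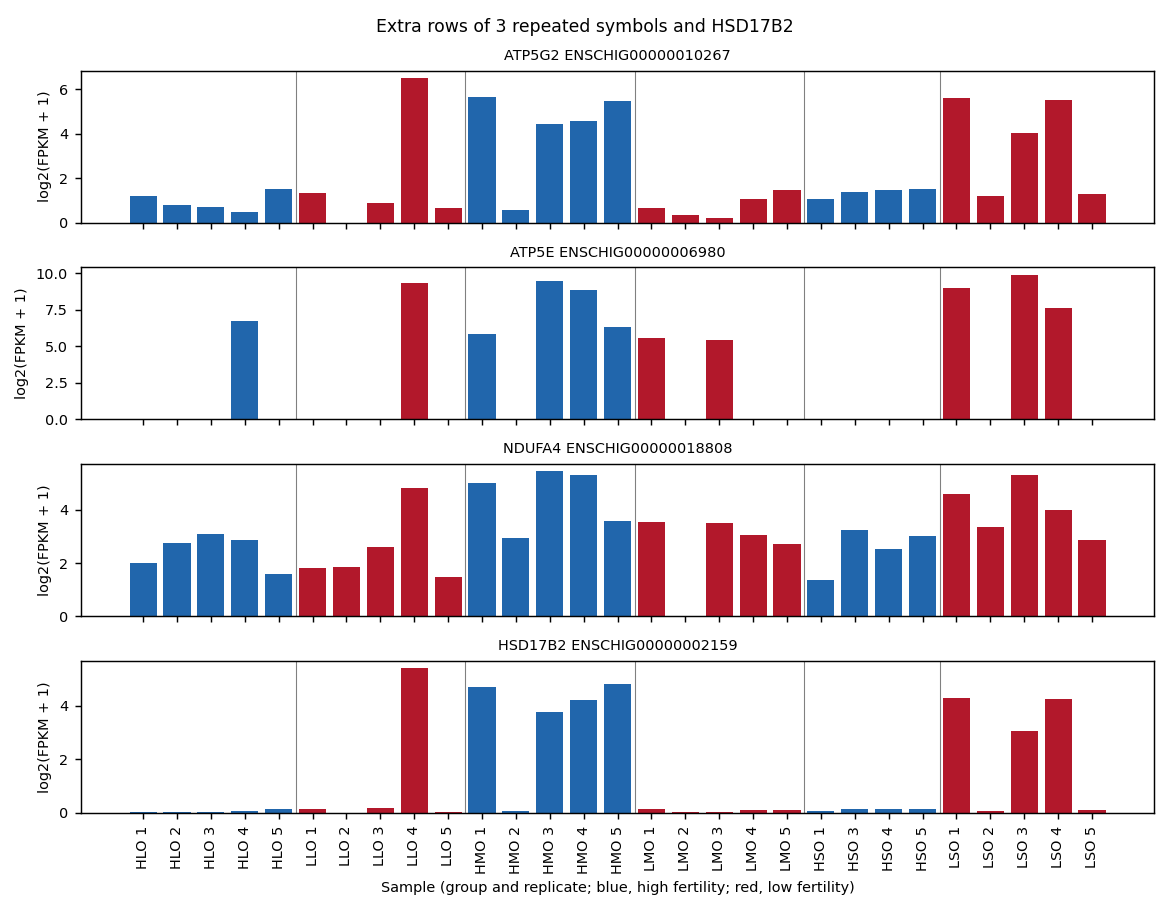
Log2(FPKM + 1) of the lesser rows of ATP5G2, ATP5E and NDUFA4 and of HSD17B2, with 1 bar per sample by group, blue for high and red for low fertility. The same 8 samples are high in the ATP5G2 row (15.1 to 90.1 FPKM, against 0 to 1.90) and in HSD17B2 (7.44 to 41.7 FPKM).

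In small follicles, 1 of 82 member rows was higher in HSO (1.22%, background 0.919% of 8376 rows) and 3 were higher in LSO (3.66%, background 0.776%), none by adjusted p (smallest 0.88, background 0.0119%), and 5 passed an unadjusted p under 0.05 (background 4.41%). The median log2 difference was -0.052, and 38 of 82 lay above 0 (46.3%, against 49.2% of all rows). The complex I assembly factor NDUFAF4 stood at 172, 148, 159 and 168 FPKM in HSO and 51.8, 45.2, 89.2, 145 and 99.98 FPKM in LSO, a log2 difference of 1.03 ± 0.38 (SE), adjusted p = 0.880. Every HSO sample lay above every LSO sample, which held for no other member (background 0.752%). The difference was 0.83 without LSO-2 and 0.88 without LSO-1, under the limit of 1. The rows higher in LSO were the ATP5G2 row ENSCHIG00000010267 (-2.16 ± 0.92 (SE), adjusted p = 0.880), the NDUFA4 row ENSCHIG00000018808 (-1.48 ± 0.55 (SE), adjusted p = 0.880) and the NDUFA3 row ENSCHIG00000011022 (-1.20 ± 0.33 (SE), adjusted p = 0.880). The NDUFA3 row stood at 0, 0, 0 and 1.11 FPKM in HSO and 1.23, 4.22, 1.20, 2.21 and 0.992 FPKM in LSO, so that 3 of 4 HSO samples were listed at 0. The ATP5G2 and NDUFA4 rows were high in LSO-1, LSO-3 and LSO-4, the LSO samples with high HSD17B2. Without HSO-1, 0 members were higher in HSO and 1 in LSO. The count higher in HSO was 0 without LSO-1, 2 without LSO-3 and 3 without HSO-3 or LSO-5. That higher in LSO was 5 without LSO-5. How the share of all rows moved without single samples is not given for small follicles.

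Over the 3 follicle sizes together, with size as a covariate, 1 of 87 member rows was higher in the high fertility population (1.15%, background 0.485% of 9692 rows) and 0 lower (0.0413%). It was NDUFB2, with a log2 difference of 1.68 ± 0.79 (SE), adjusted p = 0.485. NDUFB2 lay at 88.0 to 1269 FPKM in HLO and 7.83 to 641 FPKM in LLO, 23.5 to 1189 in HMO and 12.5 to 545 in LMO, and 13.6 to 904 in HSO and 21.2 to 993 in LSO. The groups overlapped at each size. By an unadjusted p under 0.05 alone 10 members passed (11.5%, background 9.99%), and none by adjusted p (smallest 0.436, background 0.0103%). The median was 0.37, against -0.039 over all rows, and 70 of 87 lay above 0 (80.5%, against 42.8% of all rows). Without LLO-2, LLO-5 and LMO-2 the median was 0.045, against -0.075 over all rows, and 49 lay above 0. None of the members was counted then, against 9 of all 9559 rows higher and 3 lower. The count was 0 without any one of HLO-1, HLO-2, HMO-1, HMO-2, HSO-1, HSO-4, LLO-2, LLO-5, LMO-3, LMO-4 or LSO-3. It was 2 without HMO-3, 3 without LLO-3 or LSO-2, 4 without LMO-1, 5 without LLO-4, 7 without LLO-1 and 8 without HSO-3. How the share of all rows moved without single samples is not given for this comparison.

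Between follicle sizes, with the population as a covariate, 4 of 87 members passed an unadjusted p of 0.05 in limma's F-test (4.6%, background 1.66%) and none an adjusted p. They were NDUFB6, ATP5H, NDUFC2 and UQCRFS1, of which NDUFB6 averaged 107 ± 27.1, 238 ± 87.8 and 154 ± 13.3 FPKM in HLO, HMO and HSO and 141 ± 139.7, 131 ± 47.4 and 268 ± 96.4 FPKM in LLO, LMO and LSO. The test of whether the fertility difference changed with follicle size passed 11 of 87 members (12.6%, background 7.89%), 6 of them in rows of highest mean, and none by adjusted p (smallest 0.256). Among these the adjusted p was 0.256 for the ATP5G2 row ENSCHIG00000010267, 0.326 for the NDUFA4 row ENSCHIG00000018808, 0.485 for the ATP5E row ENSCHIG00000006980 and 0.487 for the NDUFA3 row ENSCHIG00000011022. Without LLO-2 or LLO-5, 0 members passed the stage test, as without LSO-1. It passed 1 without LSO-3 or LSO-4, 2 without HLO-5, 7 without LLO-1 or LLO-3 and 13 without LLO-4. The interaction test passed 6 members without LLO-5 or LSO-2 and 7 without HLO-1, HLO-2, HMO-3, HSO-3, LLO-2, LMO-1 or LMO-4. It passed 17, 20 and 19 without LLO-1, LLO-3 and LLO-4. The share of all rows without each sample is not set beside these counts, so that they do not tell the members from all rows.

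Within the low fertility population, the members' median log2 differences of large against smaller follicles lay below 0. Against LSO, 29 of 87 rows were lower in LLO (33.3%, background 4.2%) with a median of -0.78, and against LMO 19 were lower (21.8%, background 3.97%) with a median of -0.58. None was higher by the same limits (background 0.351% and 0.671%), and none passed by adjusted p. These comparisons share the LLO samples. Among the rows with the smallest p were, against LSO, UQCRFS1 (-1.49 ± 0.41 (SE), adjusted p = 0.413) and NDUFC2 (-2.13 ± 0.66 (SE), adjusted p = 0.413), and, against LMO, NDUFS3 (-1.35 ± 0.42 (SE), adjusted p = 0.230), a core subunit of the peripheral arm. UQCRFS1, the Rieske protein, stood at 6.65, 0.414, 5.09, 9.32 and 1.27 FPKM in LLO, 8.89, 11.9, 6.23, 11.9 and 8.67 FPKM in LMO and 15.5, 11.8, 15.1, 8.32 and 7.46 FPKM in LSO. Without LLO-2, LLO-5 and LMO-2 the medians were -0.044 and 0.030 and 0 rows were counted in either comparison (background 0.22% and 0.575% lower in LLO). Leaving out LLO-2 or LLO-5 alone left 10 rows lower against LSO. Against LMO it left 1 without LLO-2 and 2 without LLO-5. There were 11 without LMO-1, 12 without LMO-5, 31 without LLO-4 and 34 without LLO-1. These counts without single samples stand without the share of all rows. Between LMO and LSO, 4 rows were lower in LMO (4.6%, background 1.16%) and 0 higher (0.134%). Without the same 3 samples 1 row was lower in LMO (1.15%, background 0.994%).

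In the high fertility population the sizes differed in few members. Against HMO, 0 rows were higher in HLO (background 0.165%) and 4 lower (4.6%, background 1.63%), of which 1, NDUFB6, was the row of highest mean of its symbol. It stood at 98.4, 111, 133, 126 and 64.7 FPKM in HLO and 281, 88.4, 317, 253 and 253 FPKM in HMO, a log2 difference of -1.07 ± 0.48 (SE), adjusted p = 1, and HMO-2 lay with HLO. HMO-2 was also the HMO sample with low HSD17B2 (0.0443 FPKM). In LLO, NDUFB6 was highest in LLO-4 (379.7 FPKM, next 129), where HSD17B2 was high too (41.7 FPKM). The other counted rows were the ATP5G2, ATP5E and NDUFA4 rows with the split of HSD17B2. Those were also the 3 rows higher in HMO than in HSO (3.45%, background 1.35%), while 0 were lower (0.299%). Between HLO and HSO 1 row was higher in HLO (1.15%, background 0.0929%) and 0 in HSO (0.0825%), namely the NDUFA3 row ENSCHIG00000011022 (1.21 ± 0.49 (SE), adjusted p = 1).

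Other genes of the pathway were taken from lists. Among all rows tested, 1.78% were higher in HLO, 2.85% in HMO and 0.919% in HSO by the same limits. The shares higher in LLO, LMO and LSO were 0.516%, 0.548% and 0.776%. Of the 13 subunits encoded by mitochondrial DNA, 11 were lower in HMO than in LMO, 0 differed past the limits in large or small follicles and none passed by adjusted p. ND1, a membrane core subunit of complex I, differed by -3.12 ± 0.76 (SE), adjusted p = 0.162, ND4 by -1.92 ± 0.48 (SE), adjusted p = 0.172 and ND5 by -1.91 ± 0.57 (SE), adjusted p = 0.271. Without LMO-2, 10 of the 13 were lower in HMO, against 56 of all 8260 rows. Without LLO-2 and LLO-5, 2 were higher in HLO (COX2 and ND3), against 41 of all 7965 rows. The summed level of the 13 ran from 11.2 FPKM (LLO-4) to 5919 FPKM (HSO-3), and the part that enrichment by oligo(dT) had in it was not tested. Of 15 tested rows for cytochrome c1, ubiquinone synthesis and small partners, 2 were higher in HLO, namely COQ5, a methylase of ubiquinone synthesis (2.80 ± 1.05 (SE), adjusted p = 0.828), and PDSS1, which makes its side chain (1.65 ± 0.68 (SE), adjusted p = 0.828). Without LLO-2 and LLO-5 these differences were 1.54 and 0.71 on the log2 scale and neither passed. For USMG5, a small ATP synthase subunit, the row ENSCHIG00000005938 was higher in HMO (1.07 ± 0.37 (SE), adjusted p = 0.376), while the rows of higher mean, ENSCHIG00000003414 and ENSCHIG00000009879, differed by 0.30 and 0.60 and did not pass, and without LMO-2 the first row, at 0.91, fell under the limit of 1. None passed in small follicles. Of 27 assembly factors outside the NDUFAF genes, COX19, which helps bring copper to complex IV, was higher in HLO (1.85 ± 0.86 (SE), adjusted p = 0.828) and COA4, a complex IV assembly factor, in HMO (1.34 ± 0.43 (SE), adjusted p = 0.330), and of 26 tested in small follicles TMEM70, which helps assemble ATP synthase, was higher in HSO (1.12 ± 0.47 (SE), adjusted p = 0.880). Without LLO-2 and LLO-5, COX19 differed by 0.38, and without LMO-2, COA4 by 0.99, and neither passed. None of 15 transcription regulators of the system passed in any follicle size, nor did any of 11, 10 and 10 tricarboxylic acid cycle rows in large, medium and small follicles. Among the LOC-numbered subunits the median log2 difference was 1.27 in large, 0.43 in medium and -0.035 in small follicles, and 1, 2 and 0 passed the limits. The one in large follicles was cytochrome c oxidase subunit 4 isoform 1, the largest nuclear-encoded subunit of complex IV, with a log2 difference of 3.32. Without LLO-2 and LLO-5 it differed by 2.34 and did not pass, the median of the LOC-numbered subunits was 0.15 and 0 passed.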

How the data were processed

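RNA of goat oocytes was sequenced on an Illumina HiSeq instrument after enrichment with oligo(dT) beads. The authors aligned reads to the goat genome, kept unique matches with few mismatches and took out duplicates by picard. Cufflinks 2.2.1, given Ensembl genes, produced the FPKM, which were deposited as a table of genes by samples. The aligner, the genome build and strandedness are not given in the sources used here. FPKM are normalised values, not counts, so that depth and counting error are unknown. Of the table's value columns, 1 matched no sample in use and was left out. No pair of samples held identical values.

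Groups came from the sample titles. Values were analysed as log2(FPKM + 1), which understates changes of low rows, with limma's moderated test and a trend, over rows for which 4 or more of the samples at hand passed 0.5 FPKM. Each fertility comparison used its own samples. The pooled comparison took follicle size as a covariate, and stage contrasts and the interaction came from 6 group means over 29 samples. Rows were counted at an unadjusted p under 0.05 with a log2 difference beyond 1, F-tests at p under 0.05, and both again at 0.05 after Benjamini-Hochberg adjustment over all rows tested. Background percentages are the share of all rows tested that met the same limits.

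Members and lists were chosen with earlier results of these data known. Named genes were the SDH genes, the isoform genes, the 2 highest rows of each class, up to 5 counted rows per comparison and direction, and the symbols without a passing row; other pathway genes were named where counted, up to 3 per direction. Further genes named for their level or pattern were chosen after their values were seen. Alternatives were pseudocounts of 0.5 and 0.1, omission of the filter, a filter at 1 FPKM, scaling by median-of-ratios factors or by quantiles, array weights, an exact Wilcoxon rank sum test, the replicate number as a block, 1 row per symbol and each sample left out. Leaving out LLO-2, LLO-5 and LMO-2 together, and the alternatives for stage contrasts within a population, were added after the data were seen. The values of 1 member are not reported here, while counts and sums over members include it. The procedures were tested on simulated data. Versions were R 4.3.3 (limma 3.58.1) and Python 3.11.15 (pandas 2.3.3, matplotlib 3.10.9, scipy 1.17.1, numpy 2.4.6).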

Additional observations from a re-analysis of the deposited data

Results flagged for a closer look

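In 18 of 251 sets of values tested (1 member or sum in 1 group), the highest or lowest sample stood apart by Dixon's criterion. Chance alone flags about 1 in 20 such sets.

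Of the rows that moved with HSD17B2, LLO-4 stood above the other LLO samples in the ATP5G2 row ENSCHIG00000010267 (90.1 FPKM, next 1.49), the ATP5E row ENSCHIG00000006980 (653 FPKM, all others 0) and the NDUFA4 row ENSCHIG00000018808 (27.3 FPKM, next 5.15). In HLO, HLO-4 stood apart in the same ATP5E row (104 FPKM, all others 0). LLO-4 was also the high sample for SDHA (5.08 FPKM, next 1.75) and NDUFB6 (379.7 FPKM, next 129).

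LMO-3 stood above the other LMO samples in NDUFA6 (3604 FPKM, next 1982), NDUFC1 (2877 FPKM, next 1436), ATP5J (3220 FPKM, next 1668) and COX7A1 (867 FPKM, next 441). HSO-3 stood apart in the same way for COX7A1 (1109 FPKM, next 448). LMO-2 was the low sample in the complex IV sum (757 FPKM, next 2472) and the high one for SDHB (26.0 FPKM, next 11.2).

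LSO-1 stood high in SDHB (37.1 FPKM, next 14.6) and SDHA (9.57 FPKM, next 2.60). HMO-2 stood low in NDUFB6 (88.4 FPKM, next 252.9). LSO-2 was high in ATP5IF1 (2104 FPKM, next 1022), and HSO-5 was the one HSO sample above 0 in the NDUFA3 row ENSCHIG00000011022 (1.11 FPKM).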

How the results depend on the processing

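The median log2 difference of the members kept its direction in large follicles, in medium follicles and over all sizes under every alternative with all samples, and leaving out 1 sample at a time gave 0.40 to 0.86, 0.18 to 0.44 and 0.26 to 0.41. In small follicles it lay from -0.12 to 0.057 over the alternatives, and lay above 0 with array weights (0.012) and without HSO-3 (0.057), HSO-5 or LSO-3. In large follicles alone the sign turned when LLO-2 and LLO-5 were left out together (-0.041), while the median of all rows was then -0.15, so that the members still lay 0.11 above it. Array weights moved the median of all rows tested from -0.091 to -0.26 in large follicles, from -0.065 to -0.32 in medium follicles and from -0.039 to -0.16 over all sizes, and that of the members to 0.65, 0.34 and 0.28. None of the 14 log2 differences of single rows followed through the alternatives changed sign, and 217 values under the alternatives kept the call and 79 fell under the limits in the same direction.

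Counts of members moved more. Most are given here without the share of all rows, so that they are not read as results about the members. With array weights, that share is given above for large follicles and for the adjusted p in medium follicles. With array weights 25 were higher in HLO and 1 in LLO, 6 were higher in LMO, 11 passed an adjusted p in medium follicles, 2 were higher in the low fertility population over all sizes, 21 passed the interaction test, 3 of them by adjusted p, and 8 passed an adjusted p between sizes within a population. By the exact Wilcoxon test 0 were higher in HLO, 0 in HMO and 1 in LSO. Median-of-ratios factors gave 8 higher in HMO, 7 over all sizes, 1 in the stage test and 10 lower in LLO than in LMO. Quantile normalisation gave 2 higher in HMO and 0 in HSO, and a pseudocount of 0.1 gave 1 higher in LMO. With 1 row per symbol, 0 were higher in HMO, 0 in LSO and 6 passed the interaction test. Without LLO-2, LLO-5 and LMO-2, a choice made after seeing the data, 0 were higher in HLO, 2 in HMO, 0 over all sizes, 0 passed the stage test, 0 were lower in LLO than in LMO or LSO, and 10 differed between sizes within a population, against 60 with all samples.

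Leaving out 1 sample at a time gave 1 to 18 members higher in HLO, 2 to 12 in HMO, 0 to 1 in LMO (1 without HMO-2 or LMO-5), 0 to 3 in HSO, 1 to 5 in LSO and 0 to 8 over all sizes. It gave 0 to 13 in the stage test, 6 to 20 in the interaction test, 24 to 85 between sizes within a population, 1 to 34 lower in LLO than in LMO and 10 to 38 lower in LLO than in LSO. The lowest values between sizes were those without LLO-2 (24) and LLO-5 (25). By adjusted p it gave 0 to 1 in medium follicles (1 without HMO-2) and 0 to 1 in the interaction test (1 without HMO-2). Between sizes within a population it gave 0 to 9 (9 without LLO-4, 1 without HMO-2 or LLO-3). Shares of all rows without single samples are given above for large and medium follicles alone. The other counts thus do not tell the members from all rows.

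With the replicate number as a block, 19 members were higher in HLO (background 3.36%), 10 in HMO (3.84%), 3 in HSO and 3 over all sizes. In medium follicles 2 passed an adjusted p, and 23 passed the interaction test, 2 of them by adjusted p. The share of all rows is given here for HLO and HMO alone, so that the other blocked counts do not tell the members from all rows. The deviations of samples with the same number correlated at 0.49, 0.20, 0.46, -0.048 and 0.52 between HLO and LLO, at 0.45, 0.46, 0.60, -0.41 and 0.65 between HMO and LMO, and at -0.0014, 0.71, -0.48 and 0.58 between HSO and LSO. Of these 14 correlations 10 were above 0.1, and not every sample correlated best with its own number. The labels say nothing of what a number shares, so that the numbers were not taken as pairs and the blocked values are given here alone.

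Since FPKM carry no depth, low rows such as NDUFS1, NDUFV1 and ATP5F1D have no counting error, and a row listed at 0 is given as listed. Each group had 5 samples or fewer, of a few oocytes each.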
